A study of Homo sapiens with 4 samples.

Results

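The NF-κB family and its inhibitors were examined in T47D cells, an established line of human breast cancer with abundant progesterone receptor (PR). The 10 genes are *NFKBIA*, *NFKBIB*, *NFKBIE*, *NFKB1*, *NFKB2*, *RELA*, *RELB*, *REL*, *BCL3* and *TNFAIP3*. They were found by their symbol among 23287 gene symbols, and all 10 were present. They were selected on their FPKM in these RNA-seq libraries and on the PR binding sites around them, so their levels, changes and sites are given as a description. For RNA-seq, cells received the synthetic progestin R5020 at 10 nM or its vehicle ethanol (EtOH), each over 3 h, and for PR ChIP-seq they received 10 nM R5020 over 1 h. The cells were kept in medium with charcoal-stripped serum before treatment, for 24 h before RNA isolation and for longer before ChIP. There was 1 library of each kind and 1 cell line, so the differences hold for these libraries only, lack any replicate to set them against and carry no p-value. ChIP from EtOH-treated cells was not analysed here, so whether a site was occupied before the hormone cannot be said.

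NF-κB is a family of dimeric transcription factors built from RELA, RELB, REL and the processed products of NFKB1 and NFKB2. In resting cells the classical inhibitors IκBα, IκBβ and IκBε, encoded by *NFKBIA*, *NFKBIB* and *NFKBIE*, hold the dimers in the cytoplasm. Signals from cytokine receptors activate the IκB kinase complex, the inhibitors are degraded and the dimers enter the nucleus, where *NFKBIA* itself and *TNFAIP3* are among their classical targets and close the loop as brakes. BCL3 is an atypical, mostly nuclear IκB protein that binds homodimers of p50 or p52 and can serve as a coactivator.

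Abundance is in FPKM, which scales the number of sequenced fragments to transcript length and library size, summed over the transcripts of a gene. Since FPKM is divided by length, levels of different genes can be set side by side. A log2 fold change compares R5020 with EtOH after a pseudocount of 1 was added to each FPKM, so for a low gene it is smaller than the plain ratio. The 11018 genes whose FPKM reached 1 in either library were retained, and 1.5-fold on the log2 scale was the limit for calling a gene higher or lower. Genes with a failed estimate were not filtered out. *KRT8* and *KRT18*, which failed in EtOH, thus count as retained and higher in the shares and ranks given below. The deposited coverage, converted at 50 nt a read and summed over the listed transcripts, came to about 35151493 reads in EtOH and 36203604 in R5020. These sums are not the depth of the libraries. The paper reports larger read totals for both, with that of EtOH the higher. Transcripts with a failed estimate, such as those of *KRT8* and *KRT18* in EtOH, add nothing to the sums. How much of the gap they make up was not tested. For a single member the same conversion gave between 28 and 4945 reads in a library.

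The libraries carried the marks of a luminal breast line. Of the 9 luminal epithelial markers examined, 7 were measured in both libraries, among them *PGR*, which encodes the PR, at 23.7 FPKM in EtOH and 15.3 in R5020. Of these 7, 4 were at least 1.5-fold lower in R5020. Beside *PGR* they were *FOXA1*, at 64.3 and 14.7, *GATA3*, at 253 and 126, and *ESR1*, at 17.2 and 10.9, and their part in the changes of the members was not tested. *KRT8* and *KRT18* had a failed estimate in EtOH and are listed there at 0, which is no measurement. The 3 basal markers summed to 0.162 in EtOH and 0.370 in R5020, and the 5 leukocyte markers to 0.770 and 0.634. Of the 4 fibroblast markers, *COL1A1* was listed at 5.12 and 3.31, and the others were below 1. *FKBP5*, a classical progestin-induced gene, went from 15.9 in EtOH to 86.6 in R5020.

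Of the 8 members that were retained, 2 were at least 1.5-fold higher in R5020, *NFKBIA* and *NFKBIE*, against 7.67% of all retained genes, and 1 was at least 1.5-fold lower, *BCL3*, against 4.14%. The other 5 retained members, *RELA*, *NFKB1*, *NFKB2*, *REL* and *NFKBIB*, stayed within 1.5-fold. *RELB* and *TNFAIP3* did not reach an FPKM of 1 in either library. The median log2 fold change of the retained members was −0.15, beside 0.01 for all retained genes. With the pseudocount of 1 the members past the threshold were inhibitors or IκB-like proteins, and no DNA-binding subunit was among them. This depends on the pseudocount, since without one the subunit gene *NFKB2* was 1.57-fold lower. Since the members were chosen with these values known, nothing is read from the counts.

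**Figure D1:**
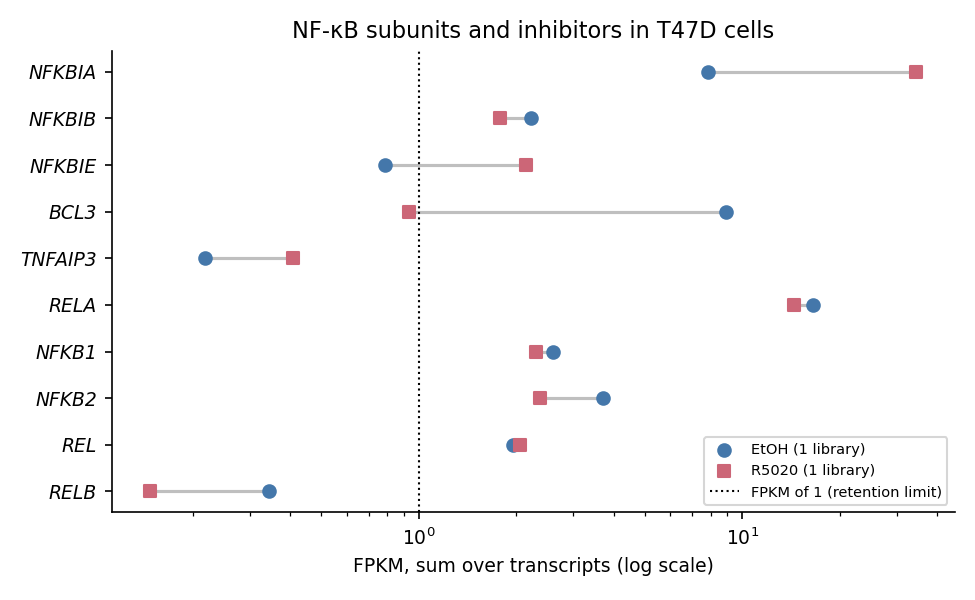
FPKM of the 10 genes on a log axis, with circles for the EtOH library and squares for the R5020 library, 1 library each, and a dotted line at the retention limit of 1. *NFKBIA* moves from 7.82 to 34.5 and *BCL3* from 8.92 to 0.935, while the squares and circles of *RELA*, *NFKB1* and *REL* lie close together.

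The sequences of 5 stretches of PR binding sites at *NFKBIA*, *NFKBIB* and *BCL3* are shown because these genes carry the strongest site near a member, the next strongest, and the sites of the member with the largest change. A binding site here is a region called by MACS in the ChIP-seq library, with a score that is 10 times the negative log10 of its p-value against input DNA, and positions are those of hg19. Capitals mark letters that match a searched motif, and all 5 stretches are written from the plus strand of hg19. The motifs come from the palindromic element that steroid receptors such as the PR recognise. They were its core ACANNNTGT, the extended palindrome, which adds to the core any letter and then an outer G on the left and any letter and then an outer C on the right, and the single arm AGAACA with its reverse complement TGTTCT. The core and the extended palindrome read the same on both strands, every extended palindrome holds the core, and an arm can overlap either. Stretches annotated as UTR of any transcript were left out. A printed stretch need not be the central part of its site. Its matches therefore cannot be set against the shares for the central 300 bases given below. Of the distal *NFKBIA* sites only that of score 91.23 is shown, the only one with a match to the core.
NFKBIA, intron 1 part of the site with score 1965.17, chr14:35873347-35873513: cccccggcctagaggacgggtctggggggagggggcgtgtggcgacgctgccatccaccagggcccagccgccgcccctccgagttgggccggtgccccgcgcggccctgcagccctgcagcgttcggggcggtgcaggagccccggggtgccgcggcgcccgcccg
NFKBIA, distal site with score 91.23, chr14:35843622-35843921: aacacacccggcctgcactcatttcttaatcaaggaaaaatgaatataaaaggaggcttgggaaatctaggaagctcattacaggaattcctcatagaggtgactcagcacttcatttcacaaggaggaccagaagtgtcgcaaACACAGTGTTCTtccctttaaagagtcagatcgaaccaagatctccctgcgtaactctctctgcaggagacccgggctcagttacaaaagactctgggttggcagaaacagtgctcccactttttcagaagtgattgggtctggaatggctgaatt
NFKBIB, site at the 5′ end with score 373.54, chr19:39389865-39390145: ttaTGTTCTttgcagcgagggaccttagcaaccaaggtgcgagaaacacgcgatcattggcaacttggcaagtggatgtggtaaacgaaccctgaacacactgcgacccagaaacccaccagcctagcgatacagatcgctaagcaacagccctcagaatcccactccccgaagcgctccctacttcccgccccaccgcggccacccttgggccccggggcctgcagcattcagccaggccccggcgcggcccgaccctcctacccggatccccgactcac
BCL3, upstream site with score 87.23, chr19:45250915-45251214: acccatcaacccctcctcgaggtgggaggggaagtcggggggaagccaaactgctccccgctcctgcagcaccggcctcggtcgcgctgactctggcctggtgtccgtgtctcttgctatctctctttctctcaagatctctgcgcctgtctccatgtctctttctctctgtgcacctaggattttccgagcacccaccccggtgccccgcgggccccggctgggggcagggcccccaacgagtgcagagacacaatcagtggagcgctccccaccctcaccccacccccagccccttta
BCL3, intronic site with score 64.51, chr19:45256899-45257198: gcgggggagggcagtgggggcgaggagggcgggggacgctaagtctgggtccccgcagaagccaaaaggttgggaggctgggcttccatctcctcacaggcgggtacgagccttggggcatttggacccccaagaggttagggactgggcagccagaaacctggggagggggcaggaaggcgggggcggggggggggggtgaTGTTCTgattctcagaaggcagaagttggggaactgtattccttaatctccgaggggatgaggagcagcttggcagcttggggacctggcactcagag

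*NFKBIA*, the gene of IκBα (chromosome 14, 35870716 to 35873960, minus strand), went from 7.82 FPKM in EtOH to 34.5 in R5020, which is 4.42-fold without a pseudocount and a log2 fold change of 2.01. Of the 11018 retained genes, 87 had a larger rise, among them *KRT8* and *KRT18*, whose estimates failed in EtOH. About 1156 reads in EtOH and 4945 in R5020 lay behind the values of *NFKBIA*. The deposited bounds of the estimate were 6.03 to 7.68 in EtOH and 26.4 to 29.8 in R5020 and did not overlap between the libraries, although the FPKM itself lay above its bounds in both. *NFKBIA* thus went from the third highest of the 10 genes in EtOH to the highest in R5020.

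The site at *NFKBIA*, chr14:35872979-35873513, had a score of 1965.17, the highest of all 11181 PR binding sites in the file. Whether this call is a true PR site cannot be told from the deposited calls. The features given next describe the site, and their part in its score was not tested. The next scores were 1593.42 and 1067.02, and the median of all sites was 74.5. The site lay downstream of the start of the gene, with its midpoint 714 bases into the transcript. Of its 535 bases, 509 were in the first intron of the canonical transcript and 26 in coding sequence of exon 2. It was narrower than most sites of similar rank: 82 of the 100 sites with the highest score were wider, and their median width was 789.5 bases against 461 for all sites. Its GC content of 75.0% was the highest among the sites near the members, and the median of all sites was 56.7%.

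None of the 3 motifs occurred anywhere in the 535 bases of that site. Taking the central 300 bases of each site, the extended palindrome was present in 1.89% of 11178 sites on the reference chromosomes, in 0.492% of windows 5 kb away, and in 14 of the 100 sites with the highest score. ACANNNTGT was present in 8.20% of sites and 7.68% of the windows 5 kb away, and in 27 of the 100. The single arm was present in 17.7% of sites, 19.2% of the windows and 30 of the 100. A missing match says only that these letters are not in this window.

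There were 4 further sites within 50 kb of *NFKBIA*, with scores of 58.23, 91.23, 91.93 and 94.67 and the nearest edge 24727 to 49298 bases from the gene. None of them overlapped a protein-coding gene. The site of score 91.23 held 2 of the 3 matches to ACANNNTGT found in sites near the members, and the stretch printed above shows the match that runs on into the single arm.

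*NFKBIE*, the gene of IκBε (chromosome 6, 44225903 to 44233525, minus strand), went from 0.784 FPKM in EtOH to 2.15 in R5020, which is 2.74-fold without a pseudocount and a log2 fold change of 0.82. About 190 and 504 reads lay behind these values. The bounds, 0.457 to 0.891 in EtOH and 1.36 to 1.97 in R5020, did not overlap, and the R5020 value lay above its own bounds. No PR binding site overlapped the gene. The nearest sites, with scores of 58.75 and 108.62, were 11522 and 33967 bases away and lay on other genes, *HSP90AB1* and *SLC29A1*, respectively.

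*NFKBIB*, the gene of IκBβ (chromosome 19, 39390340 to 39399534, plus strand), was measured at 2.23 FPKM in EtOH and 1.78 in R5020 and stayed within 1.5-fold (log2 fold change −0.22). Its 1 site within 50 kb, chr19:39389865-39390434, had a score of 373.54 and ranked 92nd of all sites. It covered the most upstream start of *NFKBIB* and also an exon of *SIRT2*, the neighbouring gene on the opposite strand. The transcript from that start was listed at 0 in both libraries. The transcript given all of the FPKM starts at 39390570, beyond the end of the site. The site therefore cannot be given to either gene by position, and without knowing whether strand was used in counting, reads of 1 gene may also have been given to the other. The single arm occurred once in the site and is in capitals in the printed stretch.

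The inhibitor levels shifted in make-up as well. *NFKBIA* made up 72.2% of the summed FPKM of the 3 classical inhibitors in EtOH and 89.8% in R5020. The 5 DNA-binding subunits together came to 25.1 FPKM in EtOH and 21.3 in R5020, and the 3 classical inhibitors 10.8 and 38.5. The ratio of summed subunits to summed inhibitors was thus 2.32 in EtOH and 0.554 in R5020, and without *NFKBIA* it was 8.34 and 5.43. The FPKM of *NFKBIA* lay above its own bounds in both libraries. With the midpoint of the bounds in place of FPKM the ratio was 2.58 in EtOH and 0.684 in R5020. With the highest transcript of each gene it was 1.65 and 0.438. These are ratios of RNA levels in 1 library each, and protein was not measured. The inhibitor sums include *NFKBIB*, at 2.23 in EtOH and 1.78 in R5020, all of it given to a transcript that RefSeq lists as non-coding.

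*BCL3* (chromosome 19, 45251978 to 45263301, plus strand) had the largest change of the 10 genes by the deposited FPKM. It went from 8.92 FPKM in EtOH to 0.935 in R5020, which is 9.54-fold lower without a pseudocount and a log2 fold change of −2.36. Of the retained genes, 49 had a larger fall. About 1514 reads in EtOH and 152 in R5020 lay behind the values. The deposited bounds were 2.47 to 3.42 in EtOH and 0.192 to 0.521 in R5020. They did not overlap between the libraries, but the FPKM lay far above its own bounds in both. With the midpoint of the bounds in place of the FPKM the log2 fold change of *BCL3* was −1.54 and that of *NFKBIA* 1.89, so that *NFKBIA* then had the larger change. Without a pseudocount the value of *BCL3* was −3.25.

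*BCL3* had 2 PR binding sites within 50 kb. The site at chr19:45250756-45251374, with a score of 87.23 and rank 2952, ended 603 bases before the start of the deposited *BCL3* transcript and overlapped exons of other annotated *BCL3* transcripts. The site at chr19:45256688-45257198, with a score of 64.51 and rank 8308, lay wholly within the intron between the second and the third exon of the canonical transcript. In the printed stretches the upstream site held none of the motifs, and the intronic site held 1 copy of the single arm. The stretch printed for the intronic site is its right end, and that for the upstream site is its centre. The sites nearest to the starts of *BCL3* and *NFKBIA*, of which the levels moved in opposite directions, thus had scores of 87.23 and 1965.17, respectively.

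By the distance between log2(FPKM + 1) values of the 2 RNA-seq libraries, the retained genes most like *BCL3* were *ARID5B*, from 8.14 in EtOH to 1.54 in R5020 (distance 0.41), *CDKN2B*, from 7.22 to 1.93 (0.66), and *ABCC6*, from 5.46 to 1.36 (0.68). A likeness over 2 libraries says only that both levels were close.

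*TNFAIP3*, the gene of the ubiquitin-editing enzyme A20 (chromosome 6, 138188581 to 138204449, plus strand), was low, at 0.218 FPKM in EtOH and 0.410 in R5020. It was not retained. Its log2 fold change was 0.21 with the pseudocount and 0.91 without it, and about 89 and 163 reads lay behind the values. The bounds, 0.147 to 0.289 and 0.305 to 0.514, did not overlap, and the nearest PR binding site was 820056 bases away.

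**Figure D2:**
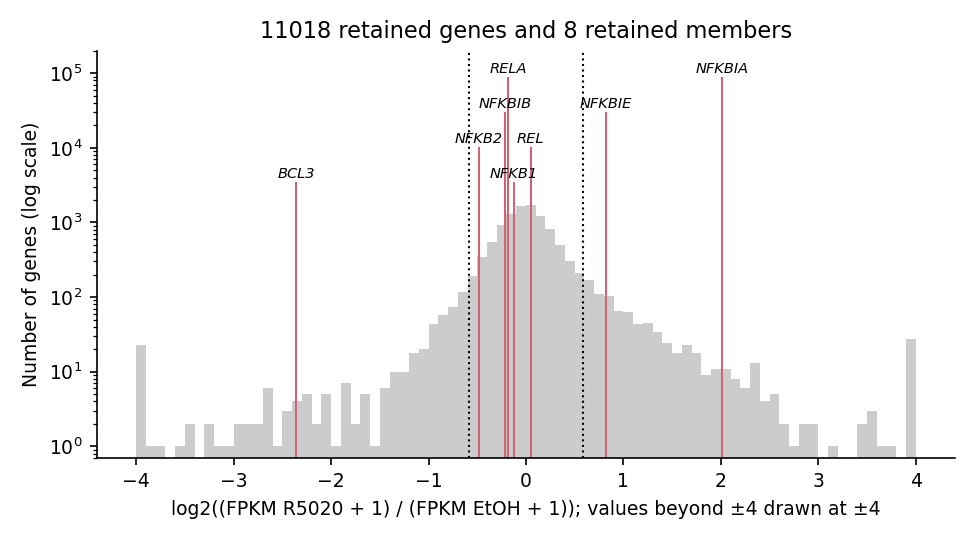
Number of retained genes (log axis) by log2 fold change of R5020 over EtOH, with the 8 retained members as red lines and the 1.5-fold limits dotted. *BCL3* at −2.36 and *NFKBIA* at 2.01 lie in the tails, and *NFKBIB*, *RELA*, *NFKB1*, *NFKB2* and *REL* lie between the limits.

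Among the subunits, *RELA*, the gene of the transactivating subunit p65 (chromosome 11, 65421067 to 65430443, minus strand), was the highest in both libraries, with 16.5 FPKM in EtOH and 14.5 in R5020 (log2 fold change −0.18). It made up 65.8% of the summed FPKM of the subunits in EtOH and 67.8% in R5020. *NFKB1*, the gene of p105 and p50 (chromosome 4, 103422486 to 103538459, plus strand), was at 2.59 and 2.30 (−0.12). *REL*, the gene of c-Rel (chromosome 2, 61108752 to 61150178, plus strand), was at 1.95 and 2.05 (0.05). All 3 stayed within 1.5-fold, and their summed bounds overlapped between the libraries.

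The subunits of the alternative pathway are *NFKB2* and *RELB*, and neither was counted as changed. *NFKB2*, the gene of p100 and p52 (chromosome 10, 104154229 to 104162281, plus strand), was at 3.71 in EtOH and 2.37 in R5020. Its log2 fold change of −0.48 with the pseudocount of 1 does not pass 1.5-fold, while the value of −0.65 without a pseudocount does. Its summed bounds, 3.21 to 4.22 and 1.97 to 2.79, did not overlap. *RELB*, the partner of p52 (chromosome 19, 45504707 to 45541456, plus strand), was at 0.343 and 0.148, with about 72 and 28 reads, and was not retained. Its bounds, 0.107 to 0.331 and 0.0371 to 0.195, overlapped.

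In order of level, *RELA*, *BCL3* and *NFKBIA* led in EtOH, followed by *NFKB2*, *NFKB1*, *NFKBIB*, *REL*, *NFKBIE*, *RELB* and *TNFAIP3*. *NFKB1*, *NFKBIB* and *REL*, at 2.59, 2.23 and 1.95, had overlapping bounds and cannot be ordered within them, and neither can *RELB* and *TNFAIP3*. The place of *BCL3* in the EtOH order rests on its FPKM of 8.92. Its bounds of 2.47 to 3.42 lie below those of *NFKBIA* and overlap those of *NFKB2*, *NFKB1*, *NFKBIB* and *REL*, so by the bounds it would not be among the leading 3. In R5020 the order was *NFKBIA*, *RELA*, *NFKB2*, *NFKB1*, *NFKBIE*, *REL*, *NFKBIB*, *BCL3*, *TNFAIP3* and *RELB*. The 5 genes from *NFKB2* at 2.37 to *NFKBIB* at 1.78 lay within a narrow range in which neighbours in that order differed by at most 1.15-fold.

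The 10 genes had 18 transcripts in the files, of which 5 were listed at 0 in both libraries and 9 reached an FPKM of 1 in at least 1 library. Of these 9, 2 were at least 1.5-fold higher, against 11.3% of all such transcripts, and 1 was lower, against 8.34%. They were the single transcripts of *NFKBIA*, *NFKBIE* and *BCL3*. Since 6 of the 10 genes had 1 transcript each, variants could be compared for 4 genes only.

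*RELA* had 4 transcripts from 1 start site, and 2 of them carried all of its FPKM. The transcript of 2269 nt was at 10.5 in EtOH and 10.4 in R5020, and that of 2578 nt at 6.03 and 4.07 (log2 fold change −0.47, within 1.5-fold). The bounds of the transcript of 2269 nt overlapped between the libraries. Those of the transcript of 2578 nt, 5.24 to 6.82 in EtOH and 3.42 to 4.74 in R5020, did not. For *NFKB1*, the transcript of 4085 nt was at 1.91 and 2.30, and that of 4082 nt was at 0.679 in EtOH and listed at 0 in R5020. These 2 variants share nearly all of their sequence, so their split is uncertain, and their sum is the safer value. Of the 3 *NFKB2* transcripts, the one of 3042 nt held 84.6% of the gene in EtOH and 83.2% in R5020. All of the FPKM of *NFKBIB* was given to a transcript that RefSeq lists as non-coding, with both coding transcripts listed at 0, so the level of coding *NFKBIB* mRNA is uncertain.

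Within 50 kb of a gene, measured from the nearest edge of the site to the extent of its transcripts, 7 of the 10 genes had at least 1 PR binding site (70.0%, Wilson 95% interval 39.7 to 89.2, counting error only), against 52.7% of the retained genes and 45.6% of all genes. A site overlapped the gene itself for 5, *NFKBIA*, *NFKBIB*, *NFKB2*, *RELA* and *BCL3*, against 22.5% of the retained genes. *NFKB1*, *REL* and *TNFAIP3* had none within 50 kb. The nearest site was 330821 bases from *REL* and 2934591 bases from *NFKB1*. The genes were selected with these sites known, so nothing is read from either count.

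There were 22 sites in all, 5 near *NFKBIA*, 1 near *NFKBIB*, 2 near *NFKBIE*, 3 near *NFKB2*, 7 near *RELA*, 2 near *RELB* and 2 near *BCL3*. Their median score was 70.8, beside 74.5 for all sites, and 4 of 22 (18.2%) had a score of at least 100, beside 16.3% of all sites. These 4 were the sites described at *NFKBIA* and *NFKBIB*, the site of score 108.62 near *NFKBIE*, and a site of score 107.1 of which 315 of 342 bases were in coding sequence of *RELA*. Of the 22, 12 lay on another protein-coding gene and not on the member, and 4 on no protein-coding gene. Just inside the distance limit was a site 49926 bases from *RELA*, with a score of 56.04, and just outside it a site 55283 bases from *NFKBIE*, with a score of 53.24.

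**Figure D3:**
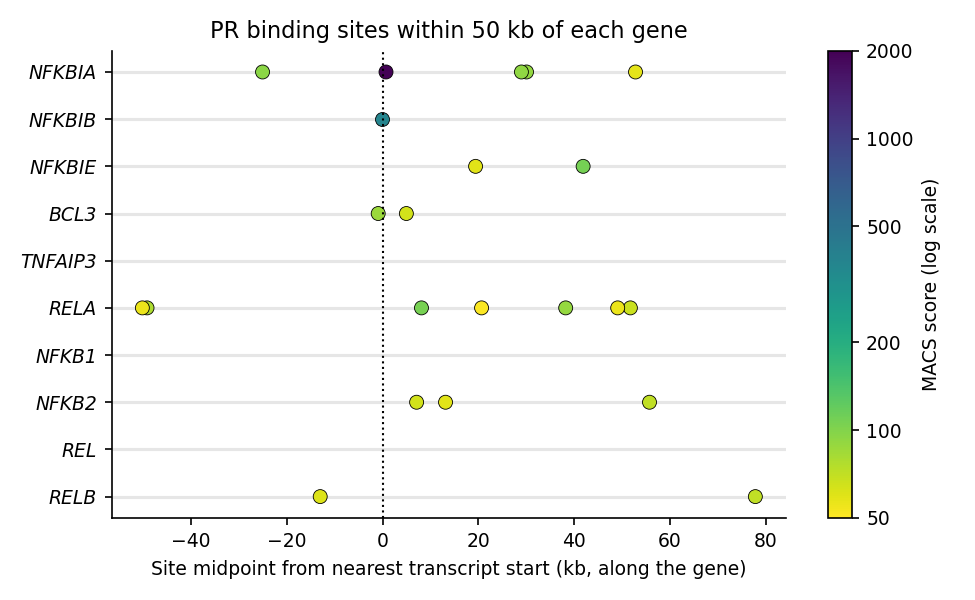
Midpoints of the 22 PR binding sites within 50 kb of a gene, in kb from the nearest transcript start along the direction of transcription, coloured by MACS score on a log scale. The sites nearest to a start are those of *NFKBIA*, *NFKBIB* and *BCL3*, and *TNFAIP3*, *NFKB1* and *REL* have none.

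Over their whole length none of the 22 sites held the extended palindrome, 2 held ACANNNTGT and 7 held the single arm. No share over all sites was computed for whole lengths. In the central 300 bases the counts were 0, 2 and 4 of 22, beside 1.89%, 8.20% and 17.7% of all sites. The sites were also rich in G and C, with a median of 65.3% and a range of 40.7 to 75.0%, beside a median of 56.7% over all sites. Whether base composition plays a part in the scores was not tested.

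**Figure D4:**
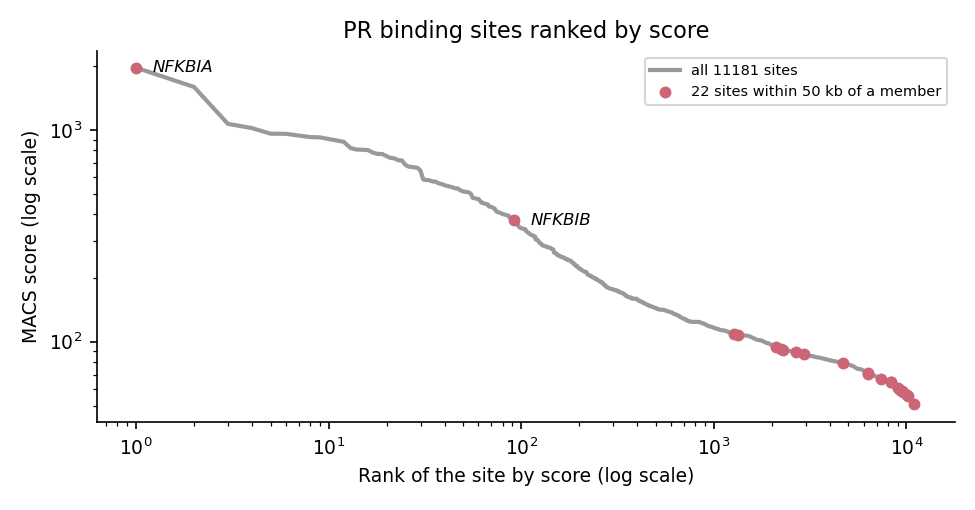
MACS score against rank for all 11181 PR binding sites (grey line, both axes log), with the 22 sites within 50 kb of a member in red. The site of *NFKBIA* is at rank 1 and that of *NFKBIB* at rank 92, and the others are at rank 1269 or beyond.

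The remaining genes of the pathway were taken as 3 lists, which share a few genes. The list of 40 receptors, adaptors and kinases that lead to NF-κB had 29 retained genes, of which 2 were at least 1.5-fold higher and 1 was lower, beside 7.67% and 4.14% of all retained genes, with a median log2 fold change of 0.05. *TRAF5*, an adaptor of TNF receptors, was at 2.85 FPKM in EtOH and 12.9 in R5020 (log2 fold change 1.86). A PR binding site overlapped *TRAF5*, as for 22.5% of the retained genes. *BCL10*, a scaffold of the CARD and MALT1 complex, was at 3.81 and 6.31 (0.60), and its nearest site was 36761 bases away. *IL1R1*, the signalling receptor of interleukin-1, was at 13.0 and 2.82 (−1.87), and its nearest site was 170607 bases away. The IκB kinase complex stayed within 1.5-fold, with its catalytic subunits *CHUK* at 9.29 and 12.3 (0.37) and *IKBKB* at 6.65 and 8.01 (0.24) and its regulatory subunit *IKBKG* at 1.12 and 1.22 (0.07).

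The list of 19 atypical IκB proteins, deubiquitinases and other brakes had 14 retained genes, and 0 of them passed 1.5-fold in either direction, beside 7.67% higher and 4.14% lower over all retained genes. Their median log2 fold change was 0.10. *NFKBIZ*, which like *BCL3* encodes an atypical IκB protein, was at 1.39 in EtOH and 1.25 in R5020 (−0.09), *CYLD* at 2.05 and 1.98 (−0.03) and *TNIP1*, a partner of A20, at 10.8 and 12.6 (0.20).

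Of the 33 classical NF-κB target genes, 23 did not reach an FPKM of 1 and 9 were listed at 0 in both libraries, among them the cytokine gene *IL6* and *CXCL8*, listed as *IL8*. Of the 10 retained, 3 were at least 1.5-fold higher and 1 was lower, beside the same 7.67% and 4.14%, with a median log2 fold change of 0.04. *SOD2*, the mitochondrial superoxide dismutase, was at 8.45 in EtOH and 23.7 in R5020 (1.39), *GADD45B*, a stress-induced gene, at 4.43 and 8.73 (0.84) and *BCL2L1*, the gene of BCL-XL, at 36.9 and 64.8 (0.80). *IER3*, an early response gene, was at 35.1 and 18.0 (−0.93). A PR binding site overlapped *BCL2L1*, and the nearest site was 1196 bases from *GADD45B*, 654978 bases from *SOD2* and farther still from *IER3*. Of all 23287 genes, 11018 were retained, so being below the limit is not confined to the targets. It was more frequent among them, at 23 of 33, than in the activating pathway, at 11 of 40, and among the other brakes, at 5 of 19. The targets past 1.5-fold went in both directions. All changes are of bulk RNA, in which fewer expressing cells and less RNA per cell cannot be told apart.

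**Figure D5:**
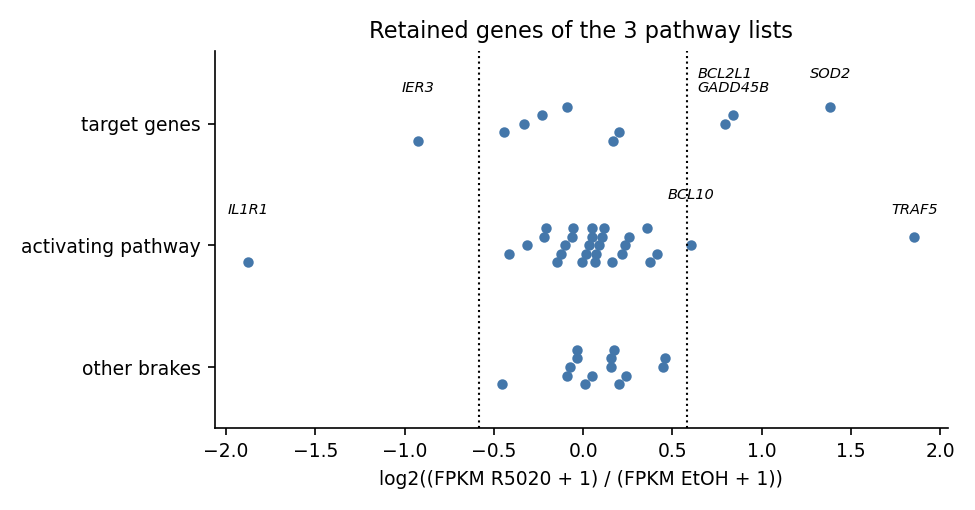
Retained genes of the 3 pathway lists by log2 fold change of R5020 over EtOH, each point 1 gene, with the 1.5-fold limits dotted and the genes beyond them named. No gene of the other brakes is beyond a limit, and *TRAF5* at 1.86 and *IL1R1* at −1.87 are the farthest on each side.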

How the data were processed

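RNA-seq of EtOH- and R5020-treated T47D cells and PR ChIP-seq of R5020-treated cells were used, 1 library each, grouped by their titles. No file of the input DNA was used. The authors trimmed reads with Trimmomatic where needed, aligned RNA-seq reads with TopHat (genome build hg19), kept those with a single position and estimated transcript abundance with Cufflinks. They deposited FPKM, its bounds and a coverage for each of 41138 RefSeq transcripts. Multi-mapped reads are thus missing from all values, and strand use in counting is not given in the sources used here. For ChIP-seq the authors aligned reads with Bowtie (version 1.1.2 in the submitters' processing notes), used MACS with depth-matched input reads as control and deposited a score of 50 or more for each of 11181 sites.

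FPKM was summed by gene symbol. A pseudocount of 1, an FPKM minimum of 1 and a threshold of 1.5-fold were used, the last 2 after the methods of the study, without its p-values. File starts count from 0 and were raised by 1. hg19 and the GRCh37 reference share coordinates, and 11178 sites fell on its main chromosomes. GENCODE release 44 on GRCh37 gave strand, exons and UTRs, and sequences came from the same assembly. The members, the lists and the rules for named genes were chosen with earlier results of these data known. The genes named are all members, the genes of a pathway list past 1.5-fold (at most 5 in each direction), and the 3 nearest to the member with the largest change, and a few others as illustrations chosen after their values were seen. Since the FPKM of a gene is no count, no count test was used, and with 1 library per condition no test across genes was possible. Counting of changed genes was tested on simulated data, with 2-fold changes placed only in genes more abundant in EtOH than any member. Recovery of changes was thus not tested at the levels of the members. Intervals cover counting error only. Alternatives were another pseudocount, fold, filter, distance, score limit, the highest transcript, rescaled FPKM and, chosen after seeing the data, the midpoint of the deposited bounds, no pseudocount and a ratio without *NFKBIA*. Python 3.11.15, pandas 2.3.3, pysam 0.24.0 and samtools 1.23.1 were used.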

Additional observations from a re-analysis of the deposited data

How the results depend on the processing

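With 1 library per condition no replicate could be left out, and the depth behind *RELB* and *TNFAIP3*, with 28 to 163 reads, limits what their values can show. No paired analysis was possible because each condition has 1 library. *NFKBIA*, *NFKBIE* and *BCL3* stayed past 1.5-fold in their direction under all 5 alternatives to their log2 fold change. Most of this was fixed in advance. Each has 1 transcript, so its highest transcript gave the same value, and a smaller pseudocount or none can only enlarge a change. The rescaling factor was 0.992, so only the midpoint of the bounds could move these values much. Of the 50 such alternative values over the 10 genes, 43 kept their direction and their side of 1.5-fold. This count includes outcomes fixed in advance, since 6 of the 10 genes had 1 transcript. *NFKB2* (−0.63 and −0.65), *RELB* (−0.84 and −1.22) and *TNFAIP3* (0.68 and 0.91) passed 1.5-fold with a pseudocount of 0.1 and with none, and *NFKB1* was at 0.18 by its highest transcript. With a pseudocount of 0.1 the number of lower members was 2, of lower member transcripts 2, of lower target genes 2 and of lower other brakes 1. At 2-fold the number of higher members was 1, of higher member transcripts 1, of higher genes of the activating pathway 1, of higher target genes 1 and of lower target genes 0. With a score of at least 100, 4 sites near 4 members remained of 22 sites near 7. Within 10 kb there were 7 sites and inside the genes 5. Without *NFKBIA* the ratio of subunits to inhibitors was 8.34 in EtOH and 5.43 in R5020. Estimated FPKM lay outside its own bounds for 3 member transcripts in each library, and the cause was not tested.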
